A study of Mus musculus with 40 samples.

Results

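Strong motor neuron genes of lesser known role are 7 of the 55487 genes in the count table: Arhgap36, Spock3, Mfap3l, Ecel1, Nwd2, Uts2b and March4. They were chosen on the strong excess of their counts in control ES-motor neurons over control ES-astrocytes, so that excess is described here without a test. Motor neurons are made from ventral neural progenitors under Hedgehog and retinoic acid signals, and transcription factors such as Mnx1, Isl1 and Lhx3 fix their cholinergic identity. Beside these textbook factors, motor neurons carry many transcripts whose work in the cell is less well mapped, among them signalling inhibitors, secreted matrix proteins, peptide ligands and membrane-bound enzymes. The 7 genes belong to 7 unrelated protein families, and 5 of them encode secreted or membrane proteins.

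All cells came from 1 mouse embryonic stem cell line, made from B6.Cg-Tg(Hlxb9-GFP)1Tmj/J mice, in which eGFP is driven by the promoter of Hb9, the product of Mnx1. ES-astrocytes were matured with forskolin and kept as control or stimulated for 24 h with il1a+tnfa, c1q+c5, il1b+il6 or tgfb2. ES-motor neurons were seeded onto them, both cell types were recovered by sorting on eGFP, and about 200 cells per sample gave 1 polyA RNA library each. There were 4 biological replicates, A to D, of 2 cell types under 5 treatments, which makes 40 libraries. The second index primer was S337 or S339 in every ES-astrocyte library and S338 or S340 in every ES-motor neuron library, so an effect of the primer cannot be told apart from the cell type. Since the promoter of Mnx1 drove the sort, Mnx1 is no independent check of the ES-motor neuron label.

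Library depth differed widely. Total counts ran from 1510823 to 16054290 in the 20 ES-astrocyte libraries and from 6557 to 19717324 in the 20 ES-motor neuron libraries. Below 20% of the median total of 2459460.5 lay 9 libraries, all of ES-motor neurons and here called shallow. These were all 4 under il1a+tnfa (117344, 445874, 300549 and 112775 counts in A to D) and c1q+c5 A with 6557. The others were il1b+il6 B with 80315, il1b+il6 D with 146775, tgfb2 A with 283205 and control C with 240859. Levels are given as CPM, a gene's count as a share of its library's total, in parts per 1e6, after TMM scaling of the totals over the 40 libraries. Intervals and lowest detectable levels cover counting error only, since PCR reads without molecular identifiers are not independent molecules. A floor of 3 counts stood for 0.23 to 2.04 CPM in single stimulated ES-astrocyte libraries and for 0.19 to 202 CPM in single stimulated ES-motor neuron libraries, the highest being c1q+c5 A, where all 7 members lay under that floor at 0 to 2 counts each.

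The cell type labels were compared with marker genes. Summed levels of 9 motor neuron markers ran from 943 to 4918 CPM in the 16 stimulated ES-motor neuron libraries (median 1259) and from 73.9 to 395 CPM in the 16 stimulated ES-astrocyte libraries (median 217). In ES-motor neurons Mnx1 was the most abundant of them (mean 1024 CPM), and in ES-astrocytes it was Lhx4 (184 CPM). Without Mnx1, whose promoter drove the sort, the sums of the other 8 ran from 269 to 977 CPM (median 662) in ES-motor neurons and from 72.4 to 392 CPM (median 214) in ES-astrocytes, so the ranges overlapped. Chat, the enzyme that makes acetylcholine, stayed low in ES-motor neurons at a mean of 6.68 CPM. Sums of 11 astrocyte markers had medians of 1448 CPM in ES-astrocytes, led by Fabp7, and 357 CPM in ES-motor neurons, led by Sox9. Of these markers, Aqp4, Gfap and Aldh1l1 were at 0 in every stimulated ES-astrocyte library, while Fabp7, a lipid carrier of radial glia and astrocytes, reached a mean of 1339 CPM. Sox9 went against the label, with a mean of 259 CPM in ES-motor neurons against 77.7 in ES-astrocytes. ES-astrocytes also held neuronal markers (11 genes, median sum 3342 CPM, led by Stmn2), interneuron markers (12 genes, median 245 CPM, led by Gata3, with Evx1 at 0), markers of progenitors and cycling cells (9 genes, median 814 CPM, led by Top2a) and fibroblast markers (5 genes, median 195 CPM, led by Dcn). In ES-motor neurons the median sums were 9185 CPM for neurons, 13.4 for interneurons, 14.3 for progenitors and cycling cells and 0 for fibroblasts. Markers of the oligodendrocyte lineage (7 genes) had median sums of 8.29 CPM in ES-motor neurons against 2.93 in ES-astrocytes, and those of microglia (6 genes) 2.15 and 0.607 CPM. Sums of 4 endothelial markers had a median of 0 in both cell types, and those of 4 pluripotency markers 0 and 0.162 CPM. The part of such cells in the differences below was not tested. In these bulk samples, fewer cells of a type and less RNA per cell cannot be told apart.

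In the control cultures, which chose the genes, every member had higher levels in each of the 4 ES-motor neuron libraries than in any of the 4 ES-astrocyte libraries. The same held for 4.45% of the 10199 genes in that contrast, and nothing is read from this count of 7 of 7. Arhgap36 stood at 231, 239, 279 and 261 CPM in ES-motor neuron libraries A to D but 0.107, 0.18, 0 and 0 CPM in the ES-astrocytes. Arhgap36 encodes a GTPase-activating-protein homologue that blocks the catalytic subunit of protein kinase A. Its 4 libraries lay close together, with a coefficient of variation of 8.60%.
Mfap3l stood at 33.4, 63.8, 164 and 46.6 CPM in control ES-motor neurons and at 0 in all 4 control ES-astrocyte libraries. Over the 4 control ES-astrocyte libraries together, 3 counts of Arhgap36, 2 of March4, 1 of Spock3 and 1 of Nwd2 were found. Uts2b had the least clean control: its 4 ES-motor neuron libraries held 116, 79.6, 26.7 and 121 CPM, and 1 control ES-astrocyte library, D, held 11.1 CPM with the other 3 at 0. Ecel1 was at 0 in 3 control ES-astrocyte libraries and at 0.683 CPM in D, against 30.7, 91.8, 72.6 and 58.0 CPM in ES-motor neurons. The low values of control ES-astrocytes took part in choosing the genes, so the gap between control and stimulated ES-astrocytes is no finding.

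**Figure D1:**
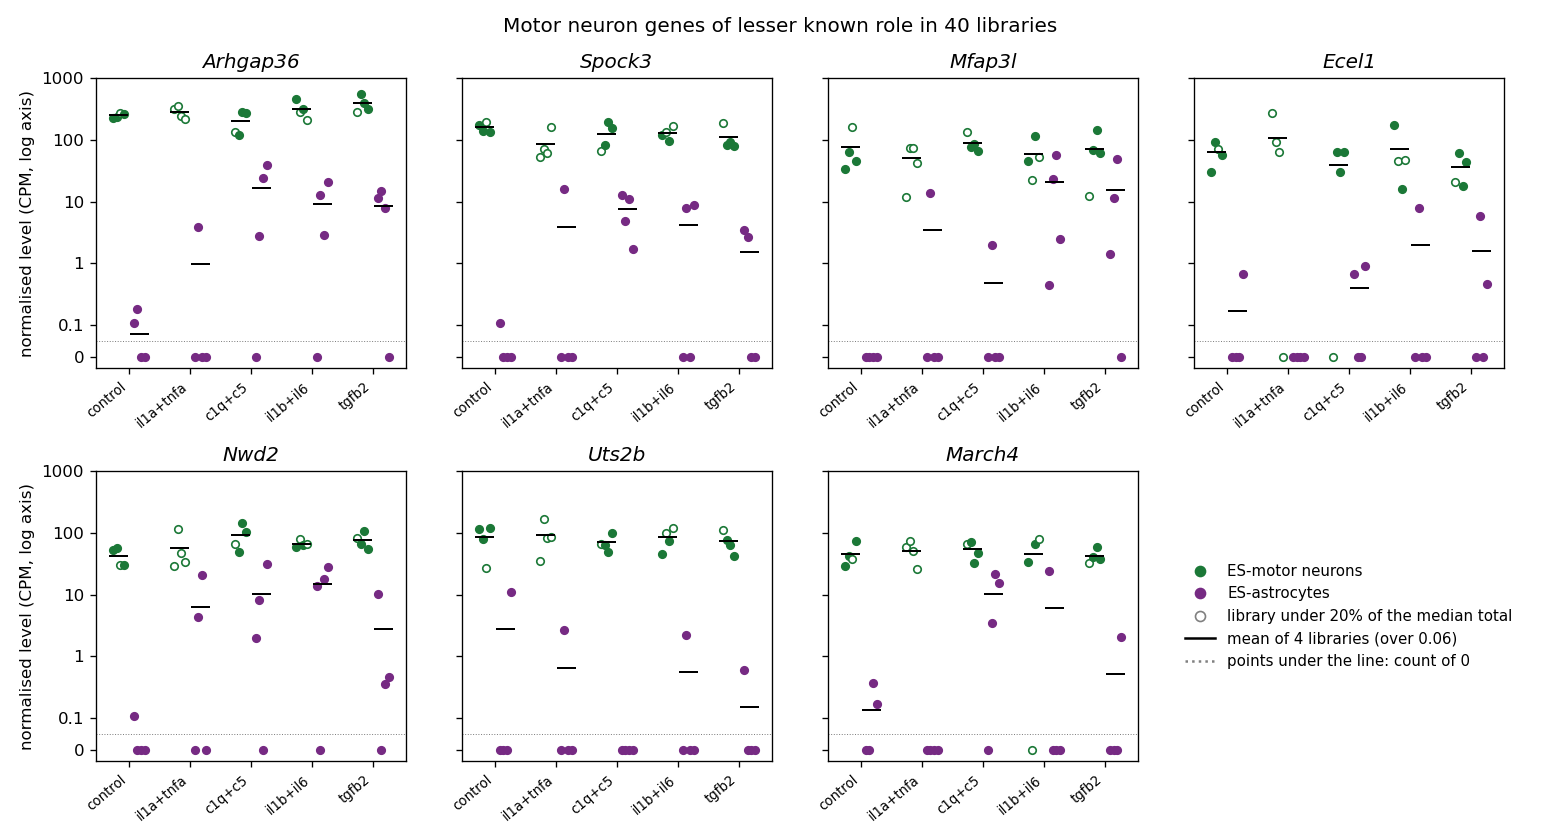
Level of each of the 7 genes in all 40 libraries, in CPM on a log axis, with ES-motor neurons in green and ES-astrocytes in purple for each of the 5 treatments. Each point is 1 library, open points are libraries below 20% of the median total, black bars are means of 4 libraries where over 0.06 CPM, and points under the dotted line have a count of 0; Arhgap36, Spock3 and Uts2b did not overlap between the cell types in any of the 32 stimulated libraries.

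The rule that chose the members used the control libraries and no value of the 32 stimulated libraries. Earlier results of these data were known at the choice, however, so the stimulated libraries are not fully independent of it. In them all 7 genes were higher in ES-motor neurons. A gene counts as called when edgeR, on 16 against 16 libraries with the stimulus in the model, gave an adjusted p of at most 0.05 and a log2 fold change beyond 1 in size. Called higher were 7 of 7 members, while 12.3% of the 12507 genes tested were called and 3.47% were called higher. The median log2 fold change of all genes tested was -0.11. Each of the 7 calls also held in the 8 other settings and in each of the 5 fits without a replicate letter or without c1q+c5 ES-motor neuron library A. Among these settings is the fit of all 40 libraries. It holds the control libraries that chose the members, so nothing is read from the calls in that fit. Levels of 3 members, Arhgap36, Spock3 and Uts2b, did not overlap between the 16 and 16 libraries, as was so for 0.128% of all genes tested. All 7 members passed the filter on low counts in this fit. Ecel1, Uts2b and March4 passed it through ES-motor neuron libraries alone. The filter itself thus favoured higher levels in ES-motor neurons for them, so their counts and p are description. Arhgap36, Spock3, Mfap3l and Nwd2 would have passed on either cell type, with 5 to 8 ES-astrocyte libraries over the filter where 4 were needed.

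Arhgap36 ran from 122 to 555 CPM in the 16 stimulated ES-motor neuron libraries (median 289) and from 0 to 39.9 CPM in the 16 stimulated ES-astrocyte libraries (median 3.42). Every ES-motor neuron library lay above every ES-astrocyte library, although 10 of the 16 ES-astrocyte libraries held some counts. The log2 fold change was 5.52 ± 0.65 (SE), with an edgeR adjusted p of 7.05e-08. Under tgfb2 the ES-motor neuron libraries A to D held 289, 555, 406 and 322 CPM, whereas the ES-astrocyte libraries 11.4, 14.9, 7.93 and 0 CPM. Under c1q+c5 they came closest, with 135, 122, 288 and 276 CPM in ES-motor neurons against 0, 2.81, 24.5 and 39.9 in ES-astrocytes. That stimulus held both the lowest ES-motor neuron library, B, and the highest ES-astrocyte library, D.

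March4 encodes a membrane-bound ubiquitin ligase of the Golgi that marks surface receptors for removal. It ran from 0 to 80.4 CPM in stimulated ES-motor neurons (median 49.5) and from 0 to 24.2 CPM in stimulated ES-astrocytes (median 0, with 11 of 16 libraries at 0). The groups overlapped through 1 library, il1b+il6 ES-motor neuron B, which had a count of 0 at a floor of 33.8 CPM, below the median of 49.5 CPM. The other 15 ES-motor neuron libraries lay above every ES-astrocyte library. March4 thus had a log2 fold change of 4.78 ± 0.91 (edgeR adjusted p 0.000134). Under il1a+tnfa the ES-motor neuron libraries held 58.9, 73.2, 50.7 and 25.9 CPM against 0 in all 4 ES-astrocyte libraries, at least 401-fold higher against 3 counts over the group. These 4 ES-motor neuron libraries were all shallow and held 62 counts of March4, and the 25.9 CPM of D rest on 3 counts. This bound, like those given below, leaves out the counting error of the ES-motor neuron side. Under il1b+il6 1 ES-astrocyte library, A, held 24.2 CPM and the other 3 were at 0.

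Spock3 encodes testican-3, a secreted calcium-binding proteoglycan of the extracellular matrix. Its levels ran from 53.0 to 197 CPM in stimulated ES-motor neurons (median 93.7) and from 0 to 15.8 CPM in stimulated ES-astrocytes (median 2.21). No library of one cell type reached the range of the other. The log2 fold change was 4.99 ± 0.63 (edgeR adjusted p 6.68e-08). Under c1q+c5 all 4 ES-astrocyte libraries held Spock3, at 12.8, 4.94, 10.9 and 1.69 CPM, against 67.4, 83.5, 197 and 157 CPM in ES-motor neurons. Under il1a+tnfa 3 ES-astrocyte libraries were at 0 and B held 15.8 CPM, the highest ES-astrocyte value of the gene.

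Mfap3l encodes a membrane protein with an immunoglobulin-like domain, related to a protein of elastic microfibrils. It was the member whose cell types overlapped most: stimulated ES-motor neurons ran from 11.8 to 144 CPM (median 67.3) and stimulated ES-astrocytes from 0 to 57.1 CPM (median 0.941). Above the highest ES-astrocyte library lay 10 of the 16 ES-motor neuron libraries. The difference came to a log2 fold change of 3.44 ± 0.78 (edgeR adjusted p 0.00123). Under c1q+c5 the cell types stood apart, at 135, 77.1, 84.8 and 66.8 CPM against 0, 1.96, 0 and 0 CPM, although the 135 CPM of ES-motor neuron library A rest on 2 counts. Under il1b+il6 they mixed, at 45.4, 22.5, 119 and 53.6 CPM in ES-motor neurons against 0.453, 23.2, 57.1 and 2.45 CPM in ES-astrocytes. There 1 of the 4 ES-motor neuron libraries, C, lay above all 4 ES-astrocyte libraries. Under tgfb2 the ES-astrocyte library C held 50.1 CPM, and ES-motor neuron library A held 12.4 CPM.

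Ecel1 encodes a membrane metalloprotease of the M13 family that is induced by nerve injury and is needed for the branching of motor axons in muscle. It ran from 0 to 277 CPM in stimulated ES-motor neurons (median 46.0) and from 0 to 7.85 CPM in stimulated ES-astrocytes, where 11 of 16 libraries were at 0. Of the ES-motor neuron libraries 14 of 16 lay above every ES-astrocyte library, and the remaining 2, il1a+tnfa D and c1q+c5 A, had a count of 0 at floors of 25.9 and 202 CPM. The log2 fold change was 6.14 ± 0.83 (edgeR adjusted p 2.43e-07). The spread was widest under il1a+tnfa, where ES-motor neuron libraries A to D held 277, 92.6, 64.3 and 0 CPM. All 4 ES-astrocyte libraries of that stimulus were at 0, so the summed level was at least 705-fold higher against 3 counts over the group. The 4 ES-motor neuron libraries of that stimulus were all shallow and held 109 counts of Ecel1 together. Under c1q+c5 ES-motor neurons held 0, 64.4, 30.7 and 64.4 CPM against 0.672, 0, 0 and 0.924 CPM. Ecel1 did not pass the filter on low counts in these 2 stimuli taken alone, and the exact two-sided permutation test of 4 against 4 libraries gave p = 0.143 in each. Under il1a+tnfa, with 5 values tied at 0, that is the smallest p these values allow, so the test could not pass there, and under c1q+c5 the smallest is 0.0286.

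Uts2b encodes the precursor of urotensin II-related peptide, a short cyclic ligand of the urotensin receptor. It had the cleanest separation in stimulated cultures, from 35.3 to 170.1 CPM in ES-motor neurons (median 76.1) and from 0 to 2.64 CPM in ES-astrocytes. Of the 16 ES-astrocyte libraries 13 were at 0, and 22 counts were found in all 16 together. At 8.08 ± 0.66, its log2 fold change was the largest of the 7 (edgeR adjusted p 6.22e-13). Under c1q+c5 ES-motor neurons held 67.4, 63.6, 50.1 and 101 CPM and all 4 ES-astrocyte libraries were at 0, at least 576-fold higher against 3 counts over the group. Under tgfb2 3 counts in ES-astrocyte library A stood against 111, 77.6, 63.0 and 42.7 CPM in ES-motor neurons, a ratio of 549 between the pooled counts (95% Clopper-Pearson interval 187 to 2664). The control ES-astrocyte library D, at 11.1 CPM, remained the highest of all 20 ES-astrocyte libraries for this gene.

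Nwd2 encodes a protein with NACHT and WD repeat domains whose work in neurons is little known. It ran from 29.5 to 146 CPM in stimulated ES-motor neurons (median 66.4) and from 0 to 31.6 CPM in stimulated ES-astrocytes (median 3.15), where 11 of 16 libraries held counts. Within each stimulus the cell types did not overlap, but across stimuli they did, because il1a+tnfa ES-motor neuron A at 29.5 CPM lay under c1q+c5 ES-astrocyte D at 31.6 CPM. The log2 fold change was 3.41 ± 0.66 (edgeR adjusted p 0.00015), close to the 3.44 ± 0.78 of Mfap3l. Under il1b+il6 the ES-motor neuron libraries were close together at 60.3, 78.8, 64.2 and 67.0 CPM, and the ES-astrocyte libraries held 14.0, 0, 18.2 and 27.9 CPM. An exon of Gm9954 overlaps Nwd2 on the opposite strand, and the strand of the reads is not stated, so counts of the pair cannot be told apart.

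Taken 1 stimulus at a time, with 4 against 4 libraries, fewer members passed than in the 4 stimuli together. Each member tested under a stimulus passed the filter on low counts through ES-motor neurons alone, except March4 under il1b+il6, which needed 1 ES-astrocyte library as well. The counts of members called, or without overlap, below are therefore description and no support. The overlap counts cover all 7 members, with Ecel1 also where it was not tested, while their background covers the genes tested. Under il1a+tnfa 3 of the 6 members tested were called higher, where 2.82% of all genes tested were called and 0.643% were called higher. These were Arhgap36, Uts2b and March4. Levels of 5 of the 7 members did not overlap there, against 2.35% of all genes tested. Arhgap36 held 318, 362, 247 and 216 CPM in ES-motor neurons against 0, 3.96, 0 and 0 CPM in ES-astrocytes, a log2 fold change of 8.35 ± 1.07 (edgeR adjusted p 0.000654). Uts2b held 35.3, 170.1, 84.6 and 86.3 CPM against 0, 2.64, 0 and 0 CPM, a log2 fold change of 7.26 ± 1.21 (edgeR adjusted p 0.00336). ES-astrocyte library B held 5 of the 7 members and library C only Nwd2, while A and D held none. Without ES-astrocyte library B 6 members were called, Spock3 and Mfap3l among them (edgeR adjusted p 0.000361 and 0.00145). With replicate letters in the model Spock3 was also called (edgeR adjusted p 0.0465). With no filter on low counts 7 members were called, and with at least 10 counts in 4 libraries 1 was.

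Under c1q+c5 4 of 6 members tested were called higher, namely Arhgap36, Spock3, Mfap3l and Uts2b, where 3.15% of all genes tested were called and 0.61% were called higher. Without overlap between the cell types were 6 of the 7 members, with ES-motor neuron library A under its floor for all of them, against 1.54% of all genes tested. Mfap3l differed by a log2 fold change of 6.77 ± 1.09 and Spock3 by 4.24 ± 0.68 (edgeR adjusted p 0.00114 and 0.00106). Arhgap36 differed by 3.63 ± 0.88 with an edgeR adjusted p of 0.0271. Leaving out ES-motor neuron library A, C or D ended this call (edgeR adjusted p 0.0847, 0.0742 and 0.0702), as did leaving out ES-astrocyte library B (0.0548) and RLE scaling (0.0574). Nwd2, not called at an edgeR adjusted p of 0.101, was called without ES-astrocyte library D (0.00969), its highest there at 31.6 CPM, with no filter on low counts (0.00244) and with replicate letters in the model (0.0436).

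Under il1b+il6 2 of 7 members were called higher, Arhgap36 and Uts2b, where 2.12% of all genes tested were called and 0.452% were called higher. Without overlap were 5 of the 7 members, against 2.63% of all genes tested. Arhgap36 held 464, 281, 324 and 214 CPM in ES-motor neurons against 0, 12.7, 2.88 and 20.6 CPM in ES-astrocytes, a log2 fold change of 5.25 ± 0.96 (edgeR adjusted p 0.00795). Uts2b held 46.3, 101, 74.6 and 121 CPM against 0, 2.22, 0 and 0 CPM, a log2 fold change of 7.21 ± 1.35 (edgeR adjusted p 0.00943). Mfap3l, at 1.65 ± 1.05, had the smallest difference of any member under any stimulus (edgeR adjusted p 0.772). Without either of the shallow ES-motor neuron libraries B and D 1 member was called, when Uts2b had edgeR adjusted p of 0.0533 and 0.0616. Without both, with 2 ES-motor neuron libraries left, 0 were called, at log2 fold changes of 5.51 for Arhgap36 and 6.72 for Uts2b (edgeR adjusted p 0.14 and 0.332). Arhgap36 also lost its call with no filter on low counts (edgeR adjusted p 0.114). Of the other members, March4 was called without ES-astrocyte library A, Ecel1 without B and Spock3 without C, which held 0 counts of Spock3 (edgeR adjusted p 0.0105, 0.00317 and 0.0389), and DESeq2 called Spock3 on all 8 libraries (DESeq2 adjusted p 0.00121).

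Under tgfb2 5 of 7 members were called higher, all but Mfap3l and Ecel1, where 3.62% of all genes tested were called and 1.3% were called higher. Without overlap were 6 of the 7 members, against 4.27% of all genes tested. Spock3 held 189.9, 81.8, 91.8 and 79.5 CPM in ES-motor neurons against 3.47, 2.72, 0 and 0 CPM in ES-astrocytes. March4 held 33.0, 40.3, 60.2 and 38.5 CPM against 0, 0, 0 and 2.10 CPM, and Nwd2 held 82.6, 65.8, 109 and 55.6 CPM against 10.2, 0, 0.36 and 0.467 CPM. For these 3 genes the ES-astrocyte values were at or near 0 in most libraries, with ES-astrocyte A the highest for Spock3 and Nwd2. The log2 fold changes were 5.55 ± 0.80 for Arhgap36, 6.07 ± 0.99 for Spock3, 6.39 ± 1.38 for March4 and 4.85 ± 1.21 for Nwd2 (edgeR adjusted p 0.00122, 0.00277, 0.0169 and 0.039). Without ES-motor neuron library A, C or D 3 members were called, since March4 (edgeR adjusted p 0.0576, 0.0572 and 0.0554) and Nwd2 (0.123, 0.096 and 0.0855) no longer passed. Nwd2 was also lost without ES-motor neuron B (0.0785) or ES-astrocyte C or D (0.0835 and 0.0582), and Ecel1 was called without ES-astrocyte B (0.0104). Ecel1 was also called by DESeq2 (DESeq2 adjusted p 0.00632), with no filter on low counts (edgeR adjusted p 0.0125) and with replicate letters in the model (0.0481).

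**Figure D2:**
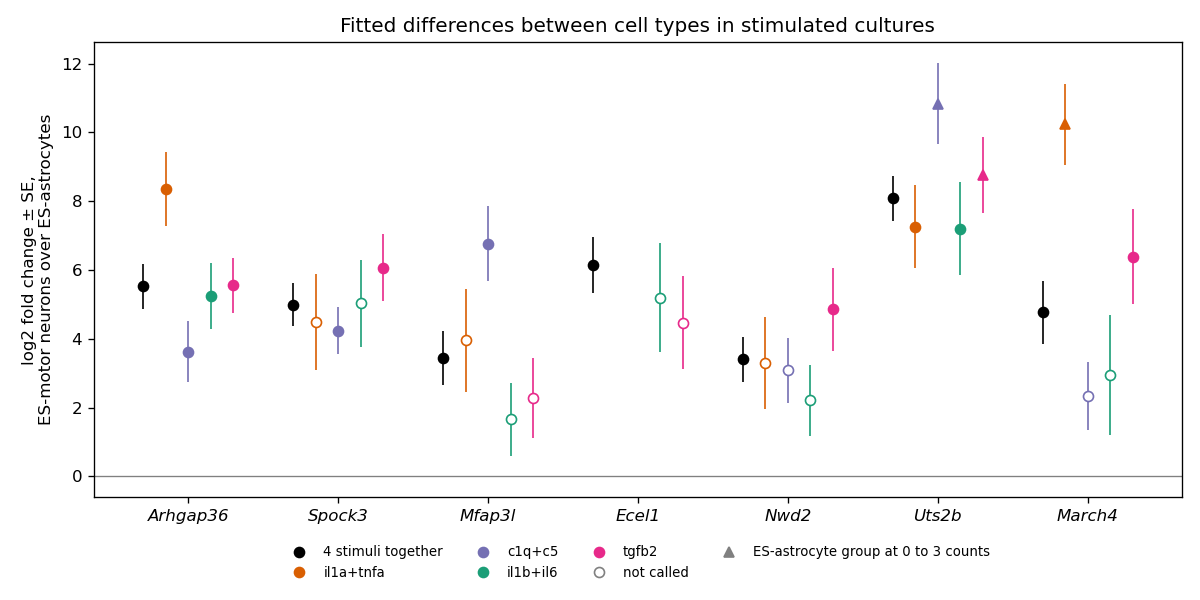
Fitted log2 fold change of ES-motor neurons over ES-astrocytes, with its SE, for each of the 7 genes in the 4 stimuli together and in each stimulus. Filled symbols were called by edgeR and open symbols were not, Ecel1 has no value where it did not pass the filter on low counts, and triangles mark ES-astrocyte groups with 0 to 3 counts, whose fitted value depends on the prior count and is no bound; every plotted value lies above 0.

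A member called under one stimulus and not under another is not thereby shown to differ between them, so the difference itself was tested. The interaction of cell type and stimulus over the 32 stimulated libraries called 0 of 7 members in edgeR, and 0.008% of the 12507 genes tested. Over all genes 663 had an unadjusted p under 0.05, and DESeq2 called 4 genes and 0 members. Among the members, March4 had the smallest edgeR unadjusted p at 0.00617, followed by Ecel1 (0.0228), Arhgap36 (0.0285) and Mfap3l (0.0484), with adjusted p from 0.811 to 0.931. The gene called was Mnx1, singled out after its values were seen, with an edgeR adjusted p of 0.023. The call ended without replicate A, B or C (edgeR adjusted p 0.263, 0.0867 and 0.975), without the shallow libraries (0.408) and with no filter on low counts (0.373). It also ended without c1q+c5 ES-motor neuron A (edgeR adjusted p 0.0688) and without il1a+tnfa (0.213), both tried after the data were seen. Its mean in ES-motor neurons was 1589 CPM under il1a+tnfa, 463 under c1q+c5, 1153 under il1b+il6 and 889 under tgfb2. In ES-astrocytes its mean was 0.0382, 8.22, 0.791 and 1.92 CPM in the same order. Of the 4 stimuli, il1a+tnfa also had the lowest members' sum in ES-astrocytes (median 10.5 CPM), with 22 of 28 member values at 0. In the sample metadata il1a+tnfa was the only stimulus with plate index 1, and the others had 2. An effect of the plate therefore cannot be told apart from il1a+tnfa, here, in the interaction and in the test between stimuli below.

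Within ES-motor neurons no member was called between the 4 stimuli. The edgeR test with 3 degrees of freedom over the 16 stimulated libraries called 0 of 7 members and 0.0256% of the 7825 genes tested. Over all genes 204 had an unadjusted p under 0.05, and DESeq2 called 3 genes and 0 members. Ecel1 had the smallest unadjusted p of the members at 0.14 and March4 the largest at 0.924. Mean levels of Ecel1 were 108 ± 119 CPM (SD, n = 4) under il1a+tnfa, 39.9 ± 31.0 under c1q+c5, 71.0 ± 71.4 under il1b+il6 and 36.0 ± 20.6 under tgfb2, so the spread between libraries was as wide as the gaps between stimuli. The 2 genes called, Nfia and Hoxa5, were singled out after their values were seen and had means of 375 and 184 CPM under tgfb2 against at most 74.7 and 37.1 CPM under the other stimuli (edgeR adjusted p 0.0148 for each). Both calls ended without any 1 of the replicate letters A to D (edgeR adjusted p from 0.109 to 0.792 for Nfia and from 0.109 to 0.9999 for Hoxa5) and without the shallow libraries. Of these 16 libraries 8 were shallow, all 4 of il1a+tnfa among them, and what limited the calls was not tested.

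Each stimulus was also set against control in ES-motor neurons, with the reserve that the 4 comparisons share the control libraries, which chose the members. In edgeR 0 of 7 members were called under il1a+tnfa (0% of 4479 genes tested), 0 of 7 under c1q+c5 (0% of 7348), 0 of 7 under il1b+il6 (0% of 8327) and 0 of 7 under tgfb2 (0.0126% of 7947). Unadjusted p was under 0.05 for 143, 322, 98 and 221 genes, and DESeq2 called 1, 0, 1 and 17 genes and 0 members in each. Nwd2 stood at 53.3, 56.7, 30.6 and 30.4 CPM in control libraries A to D and at 67.4, 50.1, 146 and 103 CPM under c1q+c5, where the groups overlapped. Its log2 fold changes over control were 0.61 ± 0.52 under il1a+tnfa, 1.16 ± 0.47 under c1q+c5, 0.64 ± 0.50 under il1b+il6 and 0.84 ± 0.45 under tgfb2. The c1q+c5 value had an edgeR unadjusted p of 0.0198 and an adjusted p of 0.997. Spock3 had values of -0.78 ± 0.45, -0.22 ± 0.40, -0.34 ± 0.40 and -0.60 ± 0.39 in the same order, none of them called. The gene called under tgfb2 was Hoxa5, at 21.9 ± 4.53 CPM in control and 184 ± 81.2 CPM under tgfb2. Without tgfb2 library A or D or control library C it was not called (edgeR adjusted p 0.0556, 0.0793 and 0.0647), nor without all shallow libraries (0.362). The plate index in the sample metadata, 1 for control and il1a+tnfa and 2 for the other 3 stimuli, cannot be told apart from those 3 stimuli.

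By treatment, the order of mean levels in ES-motor neurons was set by small gaps. Arhgap36 ranged from 205 ± 88.9 CPM under c1q+c5 through 253 ± 21.7 in control to 393 ± 119 under tgfb2. Spock3 was highest in control, at 163 ± 30.0 CPM, over il1b+il6 at 129 ± 30.1 CPM and il1a+tnfa at 87.2 ± 51.7 CPM. The control levels took part in choosing the members, so the place of control in each order is no finding. For Spock3 the step from control to il1b+il6 was larger than the SD of either treatment. All other steps between neighbours, for each of the 7 genes, were within the larger SD of the 2 neighbours, though not always within the smaller. Nwd2 was lowest in control, at 42.7 ± 14.2 CPM, and highest under c1q+c5, at 91.7 ± 42.5 CPM. Uts2b lay between 70.4 ± 21.5 CPM under c1q+c5 and 94.1 ± 55.9 CPM under il1a+tnfa, and March4 between 43.0 ± 11.9 CPM under tgfb2 and 54.9 ± 18.0 CPM under c1q+c5. Mfap3l went from 51.2 ± 30.2 CPM under il1a+tnfa to 90.9 ± 30.1 CPM under c1q+c5.

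Between genes, levels are compared per kilobase of exon length. In the 16 stimulated ES-motor neuron libraries Uts2b, a short transcript of 835 bases, led with 97.0 ± 41.3 CPM per kilobase, next to Arhgap36 with 88.1 ± 32.5 and within its spread. Spock3 followed with 18.8 ± 7.98 CPM per kilobase, a step larger than the SD. Below it came Ecel1 (18.2 ± 20.2), March4 (10.7 ± 4.68), Mfap3l and Nwd2 (7.05 ± 3.01), each within the SD of its neighbour. The 7 members thus fell into an upper pair and a lower group of 5. In the 8 stimulated ES-motor neuron libraries at or over 20% of the median total, Arhgap36 (100.8 CPM per kilobase) came before Uts2b (77.6). That step was within the larger SD of the 2. In stimulated ES-astrocytes the order was different, with Arhgap36 at 2.59 ± 3.35 and Mfap3l at 1.48 ± 2.67 CPM per kilobase at the top and Ecel1 at 0.281 ± 0.666 at the bottom, all steps within the SD.

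In stimulated ES-astrocytes the members were patchy from library to library. Of 112 values (7 genes in 16 libraries) 60 were at 0 and 23 were over 10 CPM, whereas in stimulated ES-motor neurons 3 of 112 were at 0 and 109 were over 10 CPM. Over the floor of 3 counts lay 45 of the 112 values in ES-astrocytes and 99 of the 112 in ES-motor neurons. Summed over the 7 genes, ES-astrocyte libraries held from 0 to 89.5 CPM (median 36.8) and ES-motor neuron libraries from 533 to 960 CPM (median 755). The highest ES-astrocyte sums were in c1q+c5 D at 89.5 CPM and il1b+il6 C at 78.1 CPM, led by Arhgap36 at 39.9 CPM and by Mfap3l at 57.1 CPM. Different members led in other libraries, such as March4 in il1b+il6 A (24.2 CPM), Nwd2 in il1b+il6 D (27.9 CPM) and Spock3 in il1a+tnfa B (15.8 CPM). Across the 16 stimulated ES-astrocyte libraries, the members' sum and the sum of the 9 motor neuron markers had a Pearson correlation of -0.057 and a Spearman correlation of 0.0736, over libraries that share their depth between both sums. That marker sum was mostly Lhx4 in ES-astrocytes (mean 184 CPM), a gene not called between the cell types (log2 fold change 0.84), so the correlation says little about the other 8 markers. Whether counts of the members in ES-astrocytes came from ES-motor neurons in that sort was not tested.

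Genes with the most similar pattern were sought over the 24 stimulated libraries at or over 20% of the median total, 8 of ES-motor neurons and 16 of ES-astrocytes, by the Pearson correlation of log2(CPM + 1). These points share the split between the cell types, which sets most of each correlation. Mnx1 was among the 3 nearest genes for 4 members, Arhgap36 (r = 0.911), Ecel1 (0.899), Spock3 (0.874) and March4 (0.862). Spp2, a secreted phosphoprotein, was among them for Uts2b (0.967), Ecel1 (0.945) and Spock3 (0.875). Spp2 had a median of 21.2 CPM in stimulated ES-motor neurons and 0 in ES-astrocytes. The other nearest genes were the neurofilament gene Nefl and Nr2f1 for Arhgap36 (0.879 and 0.876), Trappc4 for Spock3 (0.901), and Hs3st5 for both Uts2b (0.959) and Ecel1 (0.910). Uts2b was also near Gm42537 (0.954), and March4 near Samd5 (0.852) and Ina (0.851). Mfap3l, the least separated member, had Dab1 (0.867), Gm16740 (0.809) and Slc8a1 (0.80), and Nwd2 had Rgs7 (0.877), Socs2 (0.846) and Atl1 (0.841).

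Among themselves, the 21 pairs of members had correlations from 0.501 (Mfap3l with March4) to 0.921 (Ecel1 with Uts2b) over the same 24 libraries. Within the 8 ES-motor neuron libraries alone the median fell to -0.0266, and 11 of the 21 pairs were negative. The extremes were Mfap3l with Ecel1 at -0.921 and Spock3 with Nwd2 at 0.768. The members were chosen for the same difference between cell types, so nothing is read from the positive correlations over the 24 libraries. Among the 8 ES-motor neuron libraries, none of them under il1a+tnfa, the members did not move as a block.

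Relatives of the members and genes of their pathways were read from the same fit, and the lists share some genes. Of the relatives and pathway genes named below, Gal and March9 passed the filter on low counts through ES-motor neurons alone. Gli3, Smo, Tep1, Sstr2, Calca, Npy and Csf1 passed it through ES-astrocytes alone. Of the markers named below, Slc18a3 and Isl2 passed it through ES-motor neurons alone. Gad1, Sox14, Fgfr3, Pax6 and Col1a2 did so through ES-astrocytes alone. The values of all these genes are description, and so are the counts and medians of lists that hold such genes. In the list of protein kinase A and Hedgehog signalling, 4 of the 12 genes tested passed through ES-astrocytes alone. Arhgap36 acts on protein kinase A and, through it, on Hedgehog signalling, and of 12 genes tested in that pathway 0 were called higher, 3 lower and 9 not called, with a median log2 fold change of -0.15 against -0.11 for all genes. DESeq2 called the same numbers in each direction, 0 and 3. The 3 of smallest p were Gli3, a Hedgehog transcription factor (24.6 CPM in ES-astrocytes against 1.01 in ES-motor neurons, log2 fold change -5.16 ± 0.97), the receptor Ptch1 (-1.64 ± 0.38) and its partner Smo (-3.71 ± 1.03). Their edgeR adjusted p were 1e-04, 0.0015 and 0.00874. Smo was not called without replicate B, C or D (edgeR adjusted p from 0.0587 to 0.101) or without the shallow libraries (0.0772). The catalytic subunit gene Prkaca, which encodes the direct partner of Arhgap36, was at 166 CPM in ES-motor neurons against 194 in ES-astrocytes (-0.17 ± 0.21, edgeR adjusted p 0.723).

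Of the testican and SPARC family without Spock3, 0 of 5 genes tested were called higher and 2 lower, with a median log2 fold change of -0.78. Sparc, a collagen-binding matrix protein, was at 203 CPM in ES-astrocytes against 3.33 in ES-motor neurons (-5.76 ± 0.52, edgeR adjusted p 1.6e-11), and Fstl1 had 465 and 56.2 CPM (-2.84 ± 0.33, 1.36e-08). The nearest relatives of Spock3 were not called, with Spock1 at 61.9 CPM in ES-motor neurons against 90.9 in ES-astrocytes (-0.57 ± 0.39) and Spock2 at 8.42 and 17.5 CPM (-0.78 ± 0.57). Smoc1 was at 1.43 and 0.944 CPM, from 86 and 98 counts in all (3.58 ± 1.33, edgeR adjusted p 0.0637). These means lie much closer together than the fitted value, so no clear difference is read from it. Smoc1 was called over all 40 libraries (edgeR adjusted p 0.0291) and without c1q+c5 ES-motor neuron A (0.0449). Spock3 thus had the opposite side of the matrix genes Sparc and Fstl1 in the same libraries.

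Mfap3, the 1 relative of Mfap3l, was at 80.3 CPM in ES-motor neurons against 89.8 in ES-astrocytes (-0.04 ± 0.27, not called). Of the 6 other M13 metalloproteases only Ece1, the endothelin-converting enzyme related to Ecel1, passed the filter on low counts, and it was lower in ES-motor neurons (4.73 against 25.4 CPM, -2.47 ± 0.76, edgeR adjusted p 0.0195). This call of Ece1 ended without replicate A or B (edgeR adjusted p 0.0624 and 0.147) and without the shallow libraries (0.164). Beside Nwd2, the NACHT and WD repeat gene Tep1 (-0.51 ± 1.03) and Apaf1, which joins WD repeats to an NB-ARC domain (0.40 ± 0.72), were not called. Of 10 other MARCH ubiquitin ligases, 7 were tested and 0 called in edgeR or DESeq2, with a median of 0.50. March6, a ligase of the endoplasmic reticulum, was nearest, with 71.9 CPM in ES-motor neurons against 41.9 in ES-astrocytes (0.99 ± 0.41, edgeR adjusted p 0.107). The others were March9 (1.61 ± 0.89), March11 (1.22 ± 1.05), March8 (0.50 ± 0.47), March7 (0.38 ± 0.26), March5 (-0.04 ± 0.33) and March2 (-1.13 ± 0.76).

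The peptide system of Uts2b was mixed. Of 9 other genes of the urotensin and somatostatin system 2 passed the filter, Sst higher in ES-motor neurons (93.5 against 37.8 CPM, 1.70 ± 0.40, edgeR adjusted p 0.0019) and its receptor Sstr2 lower (1.76 against 22.7 CPM, -4.41 ± 1.12, 0.00381). Both calls, of Sst and Sstr2, ended without replicate B (edgeR adjusted p 0.0581 and 0.261). Uts2, the paralogue of Uts2b, and the urotensin receptor Uts2r did not pass the filter. Of 10 neuropeptide genes tested, Sst again among them, 3 were called higher (Sst, Gal and Scg2), 5 lower and 2 not called, with a median of -1.02, and DESeq2 called 4 lower. Of these 10 genes, 4 passed the filter on low counts through ES-astrocytes alone and 1 through ES-motor neurons alone. The counts and the median are therefore description. The 3 of smallest p were Calca (-7.20 ± 0.99, edgeR adjusted p 3.92e-07), Cartpt (-1.46 ± 0.26, 3.27e-05) and the granin Scg2 (1.95 ± 0.37, 0.000101).

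Ecel1 is known as a nerve injury gene, and 8 other genes of that response were tested, the neuropeptide Gal included, of which 3 were called higher, 1 lower and 4 not called, with a median of 0.15. Gap43, a growth cone protein, was at 6451 CPM in ES-motor neurons against 1281 in ES-astrocytes (2.40 ± 0.19, edgeR adjusted p 2.61e-13). Jun was at 46.1 and 7.56 CPM (2.76 ± 0.52, 9.61e-05) and Gal at 6.47 and 0.102 CPM (5.82 ± 1.24, 0.000744), where Gal lost its call without replicate B (edgeR adjusted p 0.0725) and in the fit of all 40 libraries. Atf3, a transcription factor induced by axon injury, was at 1.13 and 1.55 CPM (0.19 ± 1.10, not called). Beside these families, 7 of 9 motor neuron markers were called higher (median 4.35), among them Slc18a3, the vesicular acetylcholine transporter (81.1 against 3.32 CPM, 5.45 ± 0.95), and 5 of 6 astrocyte markers tested were called lower and Sox9 higher (median -4.93). Of 11 neuronal markers 4 were called higher, and of interneuron markers 7 of 7 tested, of progenitor and cycling cell markers 8 of 8 and of fibroblast markers 3 of 3 were called lower. These list counts are description too, since 5 of the motor neuron markers tested passed the filter on low counts through ES-motor neurons alone, and 6 of the interneuron, 3 of the astrocyte, 5 of the progenitor and cycling cell and 3 of the fibroblast markers through ES-astrocytes alone. Some of these marker calls did not hold in all of the 8 other settings and 5 left-out fits: Map2 was lost in 9, Gad1 in 7, Sox2 in 6, Prph in 4, Pax6 in 3, Nes in 2, and Isl2, Sox14, Fgfr3 and Col1a2 in 1 each. In its 9 lost fits Map2 kept adjusted p from 1.77e-05 to 0.0320 (edgeR or DESeq2), and its log2 fold change fell short of the cut of 1. Of the neuronal markers not called, Snap25 was called in 1 left-out fit and 2 other settings, and Tubb3 in 2 left-out fits. Of the genes called lower above, Csf1 of the nerve injury list was lost in 7 and the neuropeptide gene Npy in 1. Among oligodendrocyte and microglia markers 0 of 3 and 0 of 1 tested were called by edgeR or DESeq2. The median of each list is to be read against -0.11 for all genes, of which 3.47% were called higher and 8.81% lower.

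Promoters were read because the members were chosen for the same difference between the cell types. RefSeq (GRCm38.p6) gave 11 promoter windows for the 7 members, March4 under the name Marchf4, and each window holds the 250 bases before a transcript start. On both strands, 5 motifs were searched: the homeodomain core TAATTA, the Onecut motif ATCAAT, the Ebf motif CCCNNGGG and the E-boxes CAGATG and CAGCTG. The core TAATTA was in 4.84% of 32851 RefSeq promoter windows of this length and in 0 of the members' 11 windows, and CCCNNGGG in 11.8% and in 0 of 11. ATCAAT was in 6.72% of windows and in 1 of 11, of Uts2b. CAGATG was in 14.4% and in 2 of 11, of Ecel1 and Nwd2, and CAGCTG in 13% and in 1 of 11, of Spock3. The windows of Uts2b, the most cleanly separated member, and of Nwd2, which overlaps Gm9954, are shown 5′ to 3′ on the strand of the gene, with the match in capitals. In Uts2b (chr16:27370240-27370489, minus strand) the capitals mark the reverse complement of ATCAAT at position -144 from the start, and in Nwd2 (chr5:63648853-63649102, plus strand) they mark CAGATG at -210.
Uts2b: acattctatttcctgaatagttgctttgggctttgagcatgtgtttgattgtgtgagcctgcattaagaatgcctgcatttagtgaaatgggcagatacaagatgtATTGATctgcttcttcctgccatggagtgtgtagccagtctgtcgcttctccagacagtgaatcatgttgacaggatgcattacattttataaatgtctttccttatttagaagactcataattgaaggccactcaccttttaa
Nwd2: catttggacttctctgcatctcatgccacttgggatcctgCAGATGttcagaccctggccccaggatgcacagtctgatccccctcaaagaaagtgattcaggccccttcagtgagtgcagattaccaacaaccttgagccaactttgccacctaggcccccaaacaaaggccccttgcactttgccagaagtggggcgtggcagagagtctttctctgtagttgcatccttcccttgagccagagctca
A match of letters is a description of the sequence and no binding site, and no match says only that these letters are not in the window.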

How the data were processed

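The deposited file holds 1 count per gene and library. The authors' processing notes name STAR for alignment and DESeq2, without versions, the genome build or the strand. Members and gene lists were chosen with earlier results of these data known. Levels are CPM on totals scaled by TMM over all 40 libraries, and exon lengths are from GENCODE M21 (GRCm38). Tests used edgeR 4.0.16 in R 4.3.3 (filterByExpr, TMM, robust quasi-likelihood fit), with p adjusted by Benjamini-Hochberg over all genes tested, and genes were called at adjusted p of at most 0.05 and a log2 fold change beyond 1 in size (no fold threshold for the tests with 3 degrees of freedom). DESeq2 1.42.0, RLE scaling, other filters, a replicate block and left-out libraries were alternatives. Members below the filter got an exact permutation test (scipy 1.17.1). Named genes were all members, relatives that passed the filter, at most 3 of smallest p per pathway list, and the 3 genes most correlated with each member. Others were chosen after their values were seen. The control contrast was not tested, and 346 genes without a name (0.133% of counts) stayed in the fits.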

Additional observations from a re-analysis of the deposited data

Results flagged for a closer look

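Of the 70 sets of 4 libraries (7 genes in 10 groups) 66 had a spread, and in 18 of them 1 library lay far from the other 3, by a gap over the range above Dixon's 95% critical value for 4 samples. Chance alone gives about 1 in 20 groups. Of the 18, 16 were in ES-astrocytes, and in 14 the other 3 libraries were at 0, where any count stands apart.

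Library B of il1a+tnfa ES-astrocytes stood apart for 4 genes, with 3.96 CPM of Arhgap36, 15.8 CPM of Spock3, 13.9 CPM of Mfap3l and 2.64 CPM of Uts2b against 0 in the others. In il1b+il6 ES-astrocytes, library B held 7.85 CPM of Ecel1 and 2.22 CPM of Uts2b, and library A held 24.2 CPM of March4. Under c1q+c5, ES-astrocyte library B held 1.96 CPM of Mfap3l. Under tgfb2, ES-astrocyte library A held 10.2 CPM of Nwd2 and 0.613 CPM of Uts2b, library B held 5.82 CPM of Ecel1 and library D held 2.10 CPM of March4. In control ES-astrocytes, library A held 0.107 CPM of Spock3 and 0.107 CPM of Nwd2, and library D held 0.683 CPM of Ecel1 and 11.1 CPM of Uts2b.

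In ES-motor neurons Spock3 stood apart in 2 libraries. It was at 164 CPM in il1a+tnfa D, against 53.0 to 71.0 CPM in the other 3, and at 189.9 CPM in tgfb2 A, against 79.5 to 91.8 CPM. Both libraries were among the 9 below 20% of the median total, where these levels rest on 19 and 46 counts.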

How the results depend on the processing

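In the 4 stimuli together all 7 members were called in each of the 8 other settings and 5 fits without libraries. Among these settings is the fit of all 40 libraries, which adds the control libraries that chose the members and is no support. No member was called between stimuli or against control in any setting run. Within a stimulus the counts of members moved, and the cause was not tested. With no filter on low counts, il1a+tnfa had 7 members called and il1b+il6 had 1, and with at least 10 counts in 4 libraries il1a+tnfa had 1. Without shallow libraries il1b+il6 had 0 and tgfb2 had 3. Leaving out 1 library at a time gave 3 to 6 members under il1a+tnfa, 3 to 6 under c1q+c5, 1 to 3 under il1b+il6 and 3 to 6 under tgfb2. Plate index 2 alone and the fits without c1q+c5 ES-motor neuron A were chosen after seeing the data.

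Genes called ran from 1066 to 2100 in the 4 stimuli together (1536 in the report), from 111 to 418 under il1a+tnfa (233), from 177 to 427 under c1q+c5 (258), from 65 to 468 under il1b+il6 (202) and from 224 to 857 under tgfb2 (361). Between stimuli they ran from 0 to 14 (2), in the interaction from 0 to 4 (1) and against control from 0 to 17 under tgfb2 (1). Under RLE scaling the median log2 fold change of all genes was -0.23 in the 4 stimuli together (-0.11 under TMM) and -0.39 under c1q+c5 (-0.18). In DESeq2, run on all genes with a count, it was 0.49 for il1a+tnfa, 0.37 for c1q+c5 and 0.55 for il1b+il6 against control (0.03, -0.06 and -0.01 in edgeR).

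Replicate letters were not used as pairs. Between the 2 cell types the median correlation was 0.01 over 20 pairs of the same letter and 0.00584 over 60 pairs of different letters. Between ES-motor neurons of 2 treatments it was 0.0148 over 40 pairs of the same letter and -0.00789 over 120 others. Over 0.1 lay 6 of the 40 and 6 of the 120, a larger share of the pairs of the same letter. The highest, 0.477, was between il1a+tnfa A and il1b+il6 A. With letters as a block, 7 members were called in the 4 stimuli together, 4 under il1a+tnfa, 5 under c1q+c5, 2 under il1b+il6 and 6 under tgfb2, and 0 between stimuli or against control.

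Fits of il1a+tnfa without shallow libraries were not run, since 0 ES-motor neuron libraries remained. Depth limits what a count of 0 can show in the 9 shallow libraries.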
